A study of Mus musculus with 8 samples.

Results

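The 10 genes described here encode enzymes that build ceramide and turn it into sphingomyelin, glucosylceramide and gangliosides, together with Gba2, which breaks glucosylceramide down outside the lysosome. They were chosen by symbol as a short path through sphingolipid synthesis, and all 10 were found among the 56980 genes of the deposited table. All 10 also passed the filter on low counts that left 12186 genes for testing.

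Sphingolipids are made in the endoplasmic reticulum and the Golgi. Serine palmitoyltransferase starts the path, ceramide synthases add an acyl chain, and a desaturase completes ceramide, which the Golgi then converts to sphingomyelin or glucosylceramide; adding galactose, sialic acid and N-acetylgalactosamine to the latter gives the gangliosides. These lipids return to the lysosome for breakdown, and macrophages handle many of them because they take up whole cells and debris. Progranulin, the product of Grn, is a secreted protein that also reaches the lysosome, so the question addressed was whether transcripts of the synthetic path differ in macrophages that lack it.

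Cells were bone-marrow-derived macrophages of C57/Bl6 mice, grown from marrow with the growth factor M-CSF at 50 ng/mL, harvested on day 7, frozen, thawed and cultured for 3 days. There were 4 wild-type (WT) and 4 constitutive Grn knockout (GrnKO) libraries, and every culture received the vehicle DMSO. Each replicate is a pool of bone marrow from several mice. The labels used here do not state the age or sex of the mice or which part of Grn is deleted. RNA was read as tags from the 3′ end of polyadenylated transcripts, so that a value in CPM (counts scaled to a common library size, with TMM factors) follows the number of transcripts and is not divided by gene length.

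Libraries held 5828180 to 8768770 counts. Grn itself stood at 1436 to 2027 CPM in WT against 12.96 to 14.4 CPM in the knockout libraries, so all 8 libraries matched their labels (log2 fold change -6.95 ± 0.15 SE, edgeR adjusted p = 4.1e-10). The summed level of 10 macrophage markers was 5573 to 9564 CPM in WT and 6385 to 8093 CPM in GrnKO, against 1.31 to 3.20 CPM over all libraries for 8 stromal markers. Lyz2 made up most of the macrophage sum. Of the 9 macrophage markers tested, edgeR called none, though Adgre1 lay just above the threshold (adjusted p = 0.05002). An unadjusted p under 0.05 was found for 6, beside 17.6% of all tested genes, and 8 had a negative log2 fold change (median -0.34). All GrnKO libraries lay below all WT libraries for 4 of them (Adgre1, Itgam, Fcgr1 and Cd14), beside 5.10% of all tested genes. For Cd68 they lay above, beside 6.88%. The part of these macrophage markers in the results below was not tested. Among markers of other cells, the sums that did not overlap between genotypes were those of 10 neutrophil markers (50.5 to 156 CPM in WT, 17.3 to 34.8 in GrnKO), the stromal markers (1.31 to 2.04 and 2.08 to 3.20 CPM) and 8 mast cell and basophil markers (0.755 to 2.52 and 6.39 to 7.63 CPM). The last rests on Kit alone: no other marker of that list passed 0.547 CPM in any library, and 5 of the 8 were at 0 in every GrnKO library (Mcpt8, Cpa3, Fcer1a, Prss34 and Mcpt4, the last at 0 in WT too). Kit was called higher in GrnKO (edgeR adjusted p = 0.0015). Of the 4 neutrophil markers tested, edgeR called 3 lower, S100a8, S100a9 and Ngp (adjusted p = 0.0045, 0.0015 and 0.033), beside 1.46% of all tested genes. Csf3r was not called (5.04 CPM in WT, 5.21 CPM in GrnKO). S100a8 and S100a9 made up most of the neutrophil sum. The part of these lists in the results below was not tested. The summed level of 16 proliferation genes ran from 1417 CPM in WT replicate 4 to 3643 CPM in WT replicate 1, and from 1966 to 2935 CPM in GrnKO, where replicate 4 was highest; none of the 16 was called by edgeR (2 had an unadjusted p under 0.05), and 15 had a negative log2 fold change (median -0.23). In these bulk cultures, fewer cells of a type and less RNA per cell cannot be told apart.

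No gene of the path was called different between the genotypes. By edgeR's quasi-likelihood test with Benjamini-Hochberg adjustment over all genes, 0 of the 10 members had an adjusted p under 0.05, against 4.25% of the 12186 genes tested (518 genes; 2.79% higher and 1.46% lower in GrnKO). The smallest adjusted p among the members was 0.104, for Degs1. At an unadjusted p under 0.05, edgeR gave 3 members, Degs1 and Cers2 higher and Ugcg lower in GrnKO, beside 17.6% of all tested genes. DESeq2 called 1 member, Degs1 (adjusted p = 0.0489), beside 6.00% of the genes it gave an adjusted p. limma-voom and limma-trend called 0 members each, beside 508 and 525 of the 12186 genes tested. The median log2 fold change of the members was 0.06, beside -0.03 over all tested genes, and 6 of 10 were positive, beside 45.8% of all tested genes. Absence of a call does not show equal levels, so the intervals matter more: every member's 95% interval, not adjusted for the number of genes, lay within a 2-fold change in either direction. For 5 members (Sptlc1, Sptlc2, Cers2, Degs1 and B4galt5) it also lay within a 1.5-fold change.

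**Figure D1:**
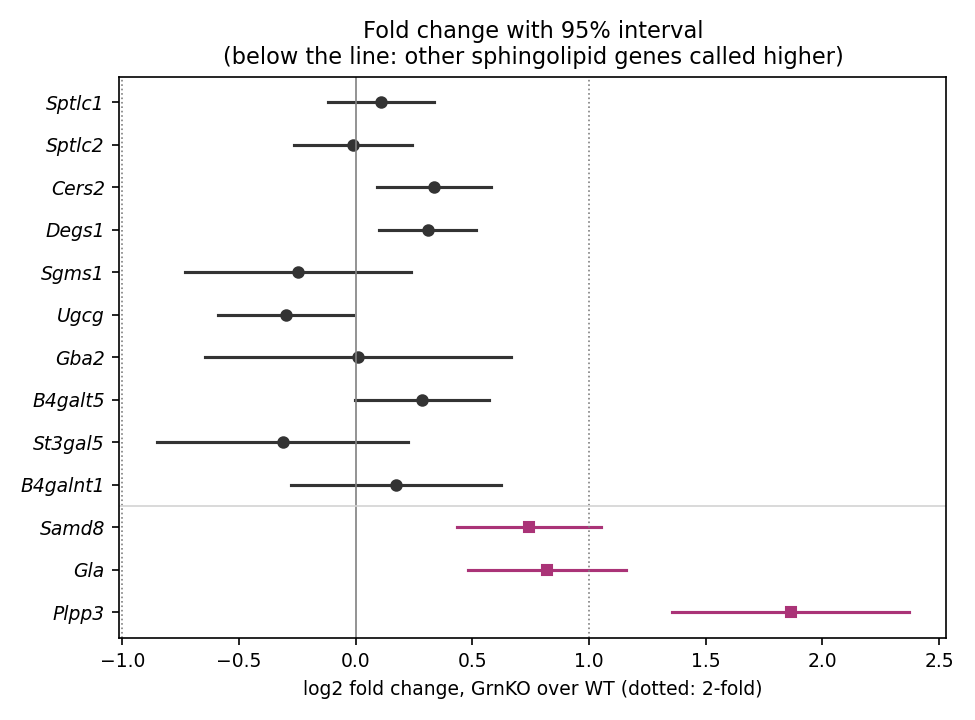
Log2 fold change of GrnKO over WT with its 95% interval for the 10 members, and below the line for the 3 other sphingolipid genes called higher (squares). All 10 member intervals sit between the dotted lines that mark a 2-fold change, while Plpp3 lies at 1.86.

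The transcripts of the path covered a wide range of levels. In WT cells Degs1 (392 CPM) and St3gal5 (386 CPM) were highest, followed by Cers2 (182 CPM), Sgms1 (151 CPM), B4galt5 (75.4 CPM), Sptlc1 (72.6 CPM), Sptlc2 (54.3 CPM), Ugcg (24.0 CPM), B4galnt1 (8.29 CPM) and Gba2 (4.47 CPM). The ranges over the 4 WT libraries overlapped for Degs1 and St3gal5, for Cers2 and Sgms1, for B4galt5 and Sptlc1 and for B4galnt1 and Gba2, so the order within those pairs is not resolved. In GrnKO cells the order by mean was the same, and B4galt5 and Sptlc1 were the only neighbours whose ranges overlapped. The least counted members, Gba2 with 21 to 51 counts per library and B4galnt1 with 42 to 87, carry the most counting error.

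**Figure D2:**
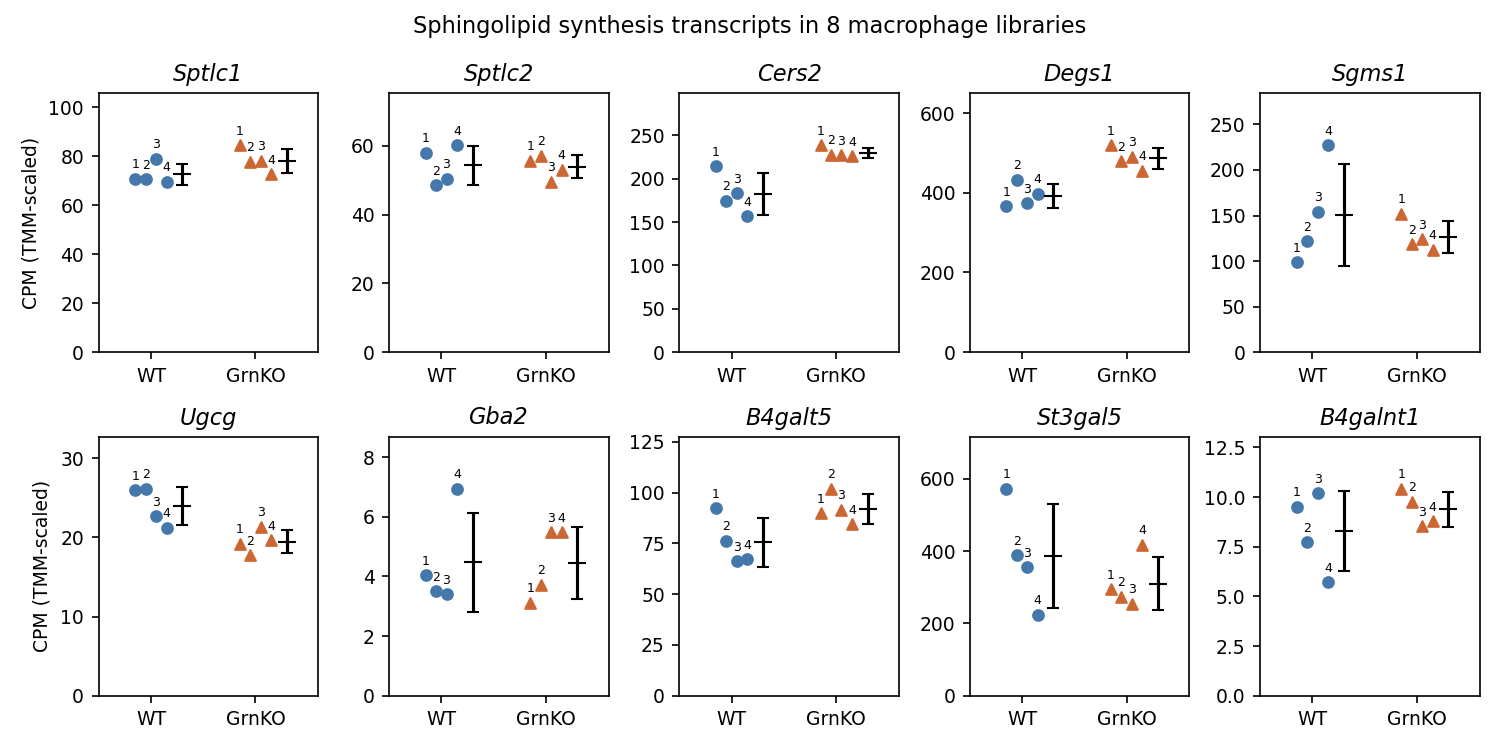
CPM of each member in every library (circles WT, triangles GrnKO, numbered by replicate), with the group mean and SD as a black bar; each axis starts at 0. Degs1 and Cers2 are the members whose GrnKO libraries all lie above the WT libraries, and Sgms1, St3gal5 and Gba2 show a wide spread among WT libraries (coefficients of variation of 37.1%, 37.2% and 37.4%).

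Serine palmitoyltransferase, which condenses serine with palmitoyl-CoA in the committed step, had near-equal subunit transcripts in both genotypes. Sptlc1 (ENSMUSG00000021468.9), a subunit of the core enzyme, ranged from 69.7 to 79.0 CPM in WT and from 72.6 to 84.6 CPM in GrnKO. Its fold change was 1.08 with an interval of 0.920 to 1.26 (edgeR adjusted p = 0.647). Sptlc2 (ENSMUSG00000021036.11), the catalytic partner, ranged from 48.6 to 60.2 CPM in WT and from 49.6 to 57.2 CPM in GrnKO, a fold change of 0.992 with an interval of 0.833 to 1.18 (edgeR adjusted p = 0.973). The GrnKO range of Sptlc2 lay inside its WT range. The ranges of Sptlc1 overlapped only through WT replicate 3 (79.0 CPM). The other WT libraries, at 69.7 to 70.9 CPM, lay below every GrnKO library.

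Degs1 (ENSMUSG00000038633.6) encodes the dihydroceramide desaturase that completes ceramide. WT replicates 1 to 4 held 366, 433, 373 and 398 CPM, and the GrnKO replicates, in the same numbering, 519, 479, 491 and 455 CPM. All 4 GrnKO libraries lay above all 4 WT libraries, the closest being GrnKO replicate 4 and WT replicate 2. The mean was 392 ± 30.2 CPM in WT and 486 ± 26.6 CPM in GrnKO (SD, n = 4 per group), a log2 fold change of 0.31 ± 0.09 (SE) that did not pass the threshold (edgeR adjusted p = 0.104).

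Cers2 (ENSMUSG00000015714.12), the ceramide synthase that prefers very long acyl chains, was measured at 215, 174, 183 and 157 CPM in the WT cultures, by replicate number. The GrnKO replicates 1 to 4 held 239, 228, 227 and 226 CPM. The groups again did not overlap, and the GrnKO libraries were close together, with a coefficient of variation of 2.53% against 13.2% in WT. The log2 fold change was 0.33 ± 0.11 (SE, edgeR adjusted p = 0.132). Without WT replicate 1, the WT library nearest to the GrnKO level, the log2 fold change was 0.42 and the gene was called (edgeR adjusted p = 0.0234), as were 7.64% of all genes tested without that library. Leaving out any other single library gave no call (edgeR adjusted p = 0.178 to 0.279), nor did leaving out WT replicates 1 and 4 together (0.0660). Cers2 was called under 2 of 19 alternatives, the other being the proliferation covariate described below. The groups of 2 of the 10 members did not overlap, both with GrnKO above, beside 12.0% of all tested genes (6.88% with GrnKO above and 5.10% with GrnKO below).

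Degs1 and Cers2 are shown here by the 250 bases before their annotated start, because they were the 2 members whose groups did not overlap. The sequences are from RefSeq on GRCm38.p6, a different build from the GRCm39 named for these data. Of the 10 members 9 had an entry; B4galnt1 had none. Cers2 has 2 annotated starts, of which the one farther upstream is shown. Capitals mark the E-box CACGTG, the core of the element bound by TFEB, a regulator of lysosomal genes.
Degs1 (chr1:182282196-182282445, - strand): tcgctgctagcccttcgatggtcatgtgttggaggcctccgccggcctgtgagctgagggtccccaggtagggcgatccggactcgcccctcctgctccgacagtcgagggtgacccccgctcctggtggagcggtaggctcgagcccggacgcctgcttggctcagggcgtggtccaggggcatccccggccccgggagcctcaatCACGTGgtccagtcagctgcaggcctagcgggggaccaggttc
Cers2 (chr3:95314940-95315189, + strand): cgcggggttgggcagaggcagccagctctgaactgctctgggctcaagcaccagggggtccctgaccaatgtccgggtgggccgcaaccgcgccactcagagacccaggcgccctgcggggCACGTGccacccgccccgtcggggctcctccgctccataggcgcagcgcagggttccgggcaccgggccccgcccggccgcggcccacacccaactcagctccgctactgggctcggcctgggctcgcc
CACGTG reads the same on both strands. It began 43 bases before the start of Degs1 and 129 bases before that of Cers2, and it was found in 2 of the 13 windows of the 9 members. Over all 32851 windows of this length, 6.02% held it. An extended form of the same element, which contains CACGTG (0.24% of all windows), the sterol element TCACCCCAC (0.496%) and the TATA box TATAAA (12.4%), each searched on both strands, were in none of the member windows. On either strand the GC box GGGCGG was in 9 of the 13 member windows (32.7% of all windows) and the CCAAT box CCAAT in 5 of the 13 (33.8%). These motifs were chosen after the expression values had been seen, and a match of letters is a description, not a binding site.

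Sgms1 (ENSMUSG00000040451.19), the Golgi sphingomyelin synthase that consumes ceramide, varied more between WT cultures than between genotypes. By replicate number, the WT libraries held 98.8, 122, 154 and 227 CPM and the GrnKO libraries 152, 119, 124 and 112 CPM. The highest and the lowest of the 8 values were both WT libraries, so the GrnKO range lay inside the WT range. The means were 151 ± 55.9 and 127 ± 17.5 CPM (SD, n = 4 per group), with a log2 fold change of -0.25 ± 0.22 (SE, edgeR adjusted p = 0.616). Without WT replicate 4 the log2 fold change was 0.02, so the sign of this difference rests on that library.

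Ugcg (ENSMUSG00000028381.9) encodes glucosylceramide synthase, the enzyme that opens the glycosphingolipid branch. Its level, by replicate number, was 25.9, 26.2, 22.7 and 21.2 CPM with Grn present (WT) and 19.2, 17.8, 21.4 and 19.6 CPM without it (GrnKO). The groups overlapped only in that GrnKO replicate 3 lay just above WT replicate 4. The mean was 24.0 ± 2.44 CPM in WT and 19.5 ± 1.48 CPM in GrnKO (SD, n = 4 per group), a log2 fold change of -0.30 ± 0.13 (SE) that was not called (edgeR adjusted p = 0.264). The log2 fold change was negative under every alternative tried, from -0.38 to -0.26, and called under none of them.

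Gba2 (ENSMUSG00000028467.16), the non-lysosomal glucosylceramidase, reverses the step that Ugcg catalyses. It was the least abundant member, at 3.40 to 6.94 CPM in WT and 3.13 to 5.49 CPM in GrnKO. The log2 fold change was 0.01 ± 0.30 (SE, edgeR adjusted p = 0.992), and its interval, 0.639 to 1.58-fold, was the widest of the 10 on the high side. The log2 ratio of Ugcg to Gba2 in CPM was 2.35 ± 0.54 in WT and 2.04 ± 0.31 in GrnKO (SD, n = 4 per group, pseudocount 0.5), a difference smaller than the spread within WT.

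B4galt5 (ENSMUSG00000017929.14), which adds galactose to make lactosylceramide, was found, by replicate number, at 92.3, 76.3, 66.1 and 67.1 CPM among WT and 89.9, 102, 91.5 and 84.5 CPM among GrnKO libraries. WT replicate 1 lay within the GrnKO range and the other 3 WT libraries lay below it. The log2 fold change was 0.28 ± 0.13 (SE, edgeR adjusted p = 0.287). B4galnt1 (ENSMUSG00000006731.11), which adds N-acetylgalactosamine on the way to the complex gangliosides, was at 5.72 to 10.2 CPM in WT and 8.54 to 10.4 CPM in GrnKO, with a log2 fold change of 0.17 ± 0.21 (SE, edgeR adjusted p = 0.723). Leaving out single libraries moved the B4galnt1 value from 0.037 (without WT replicate 4) to 0.29 (without WT replicate 3).

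St3gal5 (ENSMUSG00000056091.13) encodes the sialyltransferase that makes GM3, the simplest ganglioside of this path. WT libraries 1 to 4 gave 573, 389, 356 and 224 CPM, and GrnKO libraries 1 to 4 gave 295, 274, 254 and 418 CPM. WT replicates 1 and 4 were the highest and the lowest of the 8 libraries. The means were 386 ± 144 and 310 ± 73.7 CPM (SD, n = 4 per group), a log2 fold change of -0.31 ± 0.25 (SE, edgeR adjusted p = 0.557), which was -0.06 without WT replicate 1, -0.50 without WT replicate 4 and -0.49 without GrnKO replicate 4, none of them called. The log2 ratio of B4galnt1 to St3gal5 was -5.41 ± 0.36 in WT and -4.95 ± 0.36 in GrnKO, and that of Ugcg to Sgms1, the enzymes that compete for ceramide in the Golgi, was -2.56 ± 0.65 and -2.66 ± 0.22 (SD, n = 4 per group, pseudocount 0.5).

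The spread of St3gal5 and Sgms1 among WT cultures followed the proliferation genes in opposite directions. Among WT libraries St3gal5 was highest where the summed level of the 16 proliferation genes was highest and lowest where it was lowest, with the same order throughout, and Sgms1 had the reverse order. Among GrnKO libraries replicate 4, with the highest proliferation sum, had the highest St3gal5 and the lowest Sgms1. Over GrnKO replicates 1, 3 and 2, in falling order of the sum, Sgms1 fell as well (152, 124 and 119 CPM), against the WT direction. St3gal5 in these libraries was at 295, 254 and 274 CPM. An edgeR model with genotype and the log2 proliferation sum, added after these values had been seen, called a slope for 12.1% of the 12186 genes (7.16% positive, 4.92% negative) and for 2 of the 10 members. St3gal5 had a slope of 1.00 ± 0.11 (SE) on the log2 scale, so that its level changed in proportion to the sum (edgeR adjusted p = 3.7e-04, rank 20 by p among all genes tested). Sgms1 had a slope of -0.77 ± 0.16 (SE, edgeR adjusted p = 0.0074). None of the other 8 members was called by edgeR in this model; Cers2 had an unadjusted p of 0.0495 (adjusted 0.184), and this slope was not tested with another tool.

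The St3gal5 slope was between 0.94 and 1.20 and called whichever single library was left out. That of Sgms1 was not called without WT replicate 1 (-0.68, edgeR adjusted p = 0.0606) or WT replicate 4 (-0.61, 0.327). Without both of these libraries neither slope was called (St3gal5 1.17, adjusted p = 0.184; Sgms1 -0.31, 0.904). Total counts had the same order of libraries as the proliferation sum within each genotype, so the pair can be separated only in part. With the log2 total count in place of the proliferation sum, the slope was 2.19 ± 0.66 for St3gal5 and -1.28 ± 0.83 for Sgms1 (SE, edgeR adjusted p = 0.368 and 0.571); edgeR called 0 of all tested genes in that model (1372 at an unadjusted p under 0.05; no other tool was run), so the missing calls say little about either gene. The neutrophil markers also had their highest sum in WT replicate 1 and their lowest WT sum in replicate 4, whereas the macrophage markers were lowest in WT replicate 1 and highest in WT replicate 4; the part of either in these slopes was not tested. With the proliferation sum in the model, the genotype difference of Cers2 was called (log2 fold change 0.37 ± 0.09, edgeR adjusted p = 0.0193), and no other member was, Degs1 having an adjusted p of 0.0516. That is 1 of 10 members, beside 9.35% of all genes tested in this model.

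**Figure D3:**
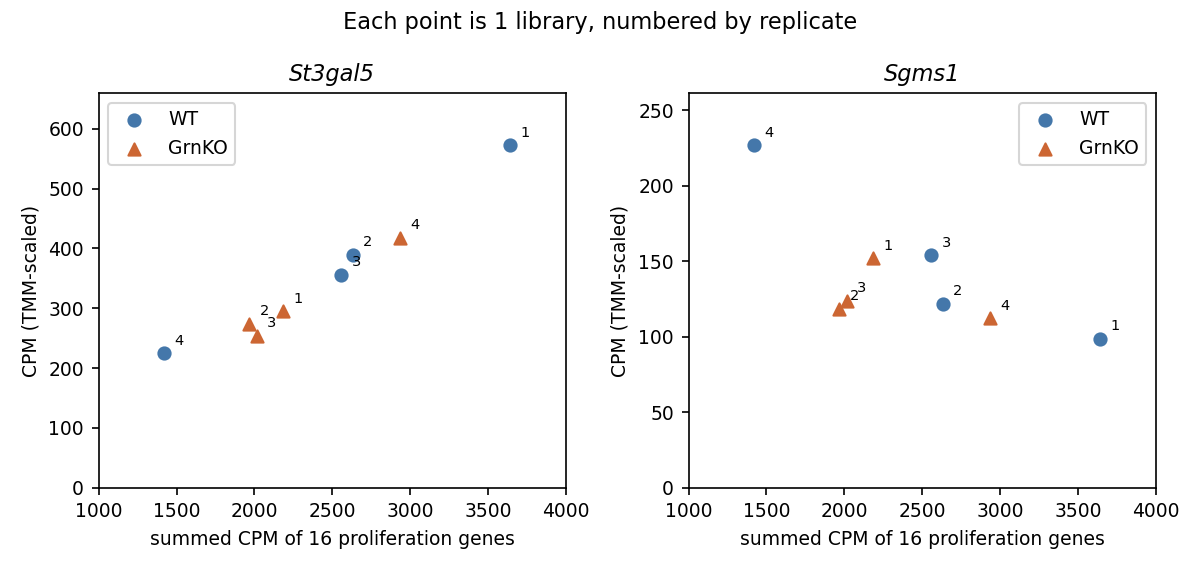
CPM of St3gal5 (left) and Sgms1 (right) against the summed CPM of 16 proliferation genes; each point is 1 library, circles WT and triangles GrnKO, numbered by replicate, and the vertical axes start at 0. St3gal5 rises from 224 CPM in WT replicate 4 to 573 CPM in WT replicate 1, and Sgms1 goes from 227 to 98.8 CPM between the same libraries.

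Of the 10 members 9 had a larger SD of log2 CPM among WT than among GrnKO libraries, Sptlc1 being the exception; 70.2% of all tested genes did too. In WT the SD was 0.55 for St3gal5 and 0.51 for Sgms1, beside a median of 0.271 over all tested genes. It was 0.08 for Sptlc1 and 0.11 for Degs1.

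The rest of sphingolipid metabolism was described with 77 genes in 7 lists by role, of which 54 could be tested. edgeR called 3 of them (5.56%, beside 4.25% of all tested genes), all higher in GrnKO, and the median log2 fold change was 0.05. None was called lower by edgeR in this main fit or by limma-voom. At an unadjusted p under 0.05, edgeR gave 12 higher and 5 lower (17.6% of all tested genes in either direction). DESeq2 called 5 higher and 1, S1pr1, lower (6.00% of the genes it gave an adjusted p). S1pr1 was also called by limma-trend and, with edgeR, without scaling factors, without WT replicate 1 and with the proliferation covariate. Smpdl3b was called by edgeR without WT replicate 4. Both, and Sphk1, were called by edgeR when every gene with a count was tested. S1pr1, Smpdl3b and Sphk1 had negative log2 fold changes in the main fit. Among the genes of sphingomyelin and ceramide phosphate synthesis, Samd8, a relative of Sgms1 that makes ceramide phosphoethanolamine, rose from 76.4 ± 11.5 to 128 ± 15.9 CPM (log2 fold change 0.74 ± 0.14 SE, edgeR adjusted p = 0.0124). Leaving out GrnKO replicate 2 or 3 ended that call (edgeR adjusted p = 0.0550 and 0.0542). The other sphingomyelin synthase, Sgms2, averaged 6.85 ± 1.44 CPM among WT and 8.86 ± 1.08 CPM among GrnKO libraries, and the ceramide kinase Cerk at 169 ± 38.6 and 165 ± 11.4 CPM (SD, n = 4 per group); neither was called. Among 13 lysosomal breakdown genes, Gla, the alpha-galactosidase that removes terminal galactose from globosides, rose from 99.3 ± 24.2 to 175 ± 8.86 CPM (log2 fold change 0.82 ± 0.15 SE, edgeR adjusted p = 0.0116). Hexa (688 ± 181 and 681 ± 72.7 CPM) and the saposin precursor Psap (log2 fold change 0.69 ± 0.20 SE, edgeR adjusted p = 0.0852) were not called. Without WT replicate 1 or WT replicate 4, edgeR called 6 listed genes each, while the share of all genes called was 7.64% and 5.53%.

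Among the genes of sphingosine phosphate, the lipid phosphate phosphatase Plpp3, which also acts on lysophosphatidic acid, rose 3.64-fold, from 4.05 ± 0.67 to 14.8 ± 4.06 CPM (edgeR adjusted p = 8.7e-04). Sgpl1, the lyase that ends the pathway, and the receptor S1pr1 were the most abundant uncalled genes there, with log2 fold changes of 0.14 ± 0.16 and -0.49 ± 0.13 (SE, edgeR adjusted p of 0.694 and 0.0652). In the lists closest to the members, none of the tested genes was called by edgeR: 5 partners and regulators of serine palmitoyltransferase, 5 genes of ceramide synthesis and transfer and 10 glycosyltransferases and transfer proteins. Sptssa, a small activating subunit of serine palmitoyltransferase, and Ormdl2, an inhibitor of it, had log2 fold changes of 0.11 ± 0.13 and 0.08 ± 0.12 (SE). The ceramide synthase Cers5 (-0.08 ± 0.12) and the ceramide transporter Cert1 (-0.11 ± 0.15), and the lactosylceramide synthase B4galt6 (-0.10 ± 0.10) and the glycolipid transfer protein Gltp (0.30 ± 0.14) were likewise not called (log2 fold change ± SE). Of the 8 non-lysosomal breakdown genes, Smpdl3a (0.30 ± 0.13) and the alkaline ceramidase Acer3 (0.07 ± 0.12) were the most abundant, and none was called by edgeR. B4galt6, with means of 220 ± 14.4 CPM (WT) and 206 ± 17.9 CPM (GrnKO) (SD, n = 4 per group), exceeded B4galt5 in every library.

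**Figure D4:**
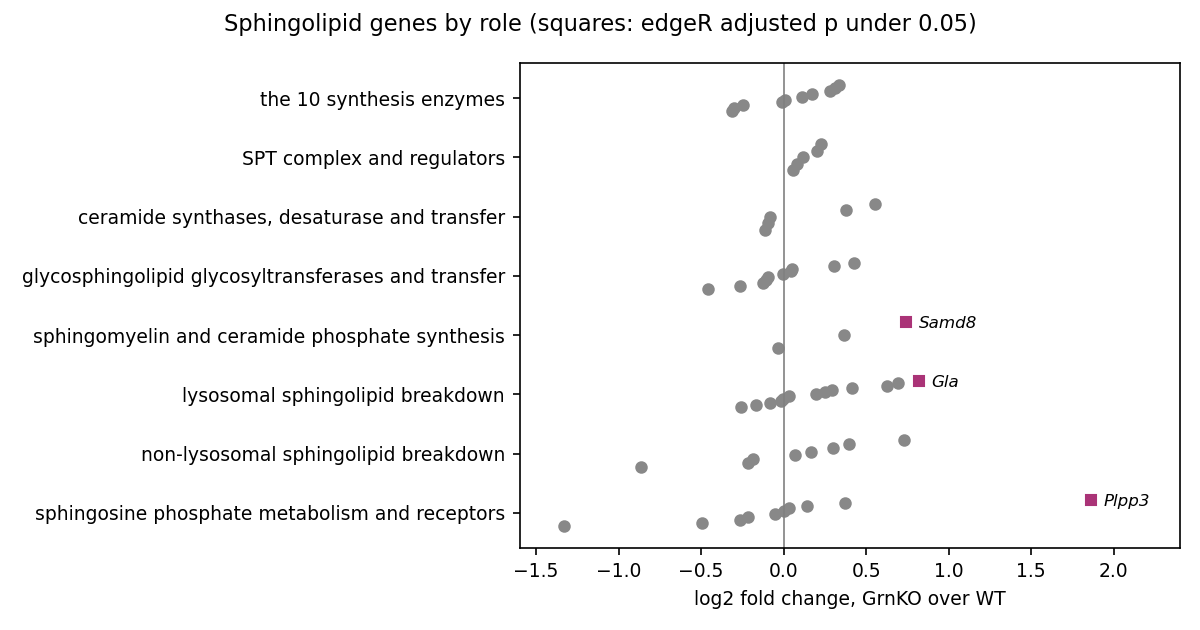
Log2 fold change of GrnKO over WT for the 10 members (top) and the 54 other tested sphingolipid genes by role; each point is 1 gene and squares have an edgeR adjusted p under 0.05. The members span -0.31 to 0.33, and the 3 squares are Samd8, Gla and Plpp3.

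Since no member was called, likeness of profile was measured for Degs1, the member with the smallest p. The genes whose log2 CPM followed it most closely over the 8 libraries, by the root mean square difference of their deviations from their own means, were Mcl1 (0.0451), Ctsa (0.0457) and Avl9 (0.0666). The difference between genotypes is part of this measure, so fold changes near that of Degs1 follow from the choice of these genes. Mcl1, an anti-apoptotic protein, had a log2 fold change of 0.34 ± 0.10 (SE, edgeR adjusted p = 0.0885). The lysosomal protective protein Ctsa had 0.27 ± 0.10 (0.156) and Avl9 0.28 ± 0.11 (0.206), so none of them was called.

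Some members share exon bases with a gene on the opposite strand, and no source used here states the strand setting of the counting. In GENCODE M21, within the last 500 bases, where the tags fall, B4galnt1 shares 500 bases with Slc26a10, Gba2 133 with Creb3 and Cers2 75 with Setdb1. Slc26a10 had at most 3.06 estimated counts in any library. That estimate depends on how shared tags were assigned, so it does not settle the value of B4galnt1. Creb3 (27.8 CPM in WT, 33.9 in GrnKO) and Setdb1 (42.7 and 40.3 CPM) were well expressed. Of Gba2 and Cers2, the value of Gba2, which is lower than that of Creb3, is therefore the more uncertain.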

How the data were processed

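The authors deposited estimated counts for each gene. The submitters' processing notes name Salmon and the build GRCm39; Salmon's version, annotation and strand setting are not given in the sources used here. Per the labels' protocols, tags carried molecular identifiers meant for the removal of PCR duplicates. Of the non-zero deposited counts 36.4% were not whole (tolerance 1e-06), and all were rounded. The log2 CPM that the authors deposited served only as an alternative. Groups came from the sample titles.

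Counts were analysed with edgeR 4.0.16 in R 4.3.3: filterByExpr (12186 of 56980 genes kept), TMM scaling, robust dispersion estimates and a quasi-likelihood F test between genotypes, adjusted by Benjamini-Hochberg over all tested genes (threshold 0.05). The SE is the absolute log2 fold change over the root of F. The largest library holds 8768770 and the smallest 5828180 counts. Libraries of a genotype differed from each other by a chi-square of at least 3.02 per degree of freedom, so none repeats another. The procedure was tested on simulated data.

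Alternatives were other scaling, a looser and a stricter filter, DESeq2 1.42.0, limma 3.58.1 (voom, and trend on the log2 CPM), dispersions without the robust option, a block for the replicate number, each library omitted in turn and a threshold of 0.01. A proliferation covariate, its slopes and leaving out WT replicates 1 and 4 together were added after seeing the data. Members, lists and tests were chosen with earlier results of these data known. The text names the members, Grn, called genes of the 7 lists, the 2 most abundant uncalled genes per list, and the 3 genes closest in profile to the member with the smallest p. Replicates are pools of mice, and the p-values measure the spread between such pools. The sample sheet was not used. Results for 1 listed gene are not reported here.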

Additional observations from a re-analysis of the deposited data

Results flagged for a closer look

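For 2 of the 20 combinations of member and genotype, 1 library stood apart from the other 3 of its group by Dixon's ratio, the gap to the nearest library over the range of the group, which had to exceed its 95% critical value. About 1 in 20 such groups is marked by chance. Sptlc1 in WT had a ratio of 0.87, because WT replicate 3 held 79.0 CPM and the other WT libraries 69.7 to 70.9 CPM. Cers2 in GrnKO had a ratio of 0.857, because GrnKO replicate 1 held 239 CPM and the other GrnKO libraries 226 to 228 CPM.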

How the results depend on the processing

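Of 246 combinations of a gene (the 10 members, Samd8, Gla and Plpp3) and an alternative, 228 kept the direction and the side of the threshold. Members called: 1 by DESeq2 (Degs1), 1 with the proliferation covariate (Cers2), 0 to 1 when single libraries were left out, and 0 under each other alternative. The count over all genes, 518 of 12186, became 918 of 36571 when every gene with a count was tested. DESeq2 called 831 (6.00% of the genes it gave an adjusted p). The count was 220 of 12186 with the replicate block, 209 of 12186 at an adjusted p under 0.01 and 973 of 12532 without WT replicates 1 and 4. With the covariate it was 1140 (9.35%). Without single libraries it was 267 to 942 (942 without WT replicate 1, 287 without WT replicate 3 and 267 to 319 without 1 GrnKO library). Without scaling factors 281 were higher and 281 lower (340 and 178 with TMM), and the median of all genes moved from -0.03 to -0.10. The 3 other sphingolipid genes called became 8 when every gene was tested, 6 by DESeq2, 4 without scaling factors, 4 by limma-trend and 1 at 0.01. They became 7 without WT replicates 1 and 4, 8 with the covariate and 2 to 6 without single libraries. Values near 0 changed sign: Gba2 was -0.058 without scaling factors, -0.039 on the deposited log2 CPM, -0.0025 with the covariate and -0.11 to 0.29 without single libraries; Sptlc2 was 0.12 without WT replicates 1 and 4 and -0.063 to 0.042 without single libraries; Sgms1 was -0.40 to 0.020 without single libraries. The slope of St3gal5 was 1.17 and that of Sgms1 -0.31 without WT replicates 1 and 4, and 0.94 to 1.20 and -0.83 to -0.61 without single libraries. The cause of these shifts was not tested. The replicate block rests on numbers that the labels do not say pair the cultures. The correlations of same-numbered deviations were -0.08, -0.15, 0.16 and -0.41, and they cannot settle whether cultures were paired. The block called no member. Gba2 and B4galnt1, with 21 to 51 and 42 to 87 counts per library, carry the most counting error. Its share in their spread was not tested.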
